A study of Bos grunniens and Bos grunniens x Bos taurus with 12 samples.

Results

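The genes described here are 10 markers of endothelial cells, the cells that line blood and lymph vessels: *PECAM1*, *VWF*, *CDH5*, *KDR*, *FLT1*, *TEK*, *TIE1*, *EMCN*, *ENG* and *CLDN5*. They were chosen by symbol, with no measured value in the rule, though earlier results of these data were known. Of the 10 genes, 9 had a row with their symbol among the 20965 genes of the table, and *FLT1* had none. The translation level of most of them was highest in the juvenile testis and lowest in the mature testis of the yak. *VWF* was highest in the mature testis, though its rise from the juvenile testis was short of the fold threshold used here. The mean levels of *VWF* and *TEK* were lowest in the cattle–yak, a hybrid. For *TEK*, the difference from the mature yak was short of the same threshold, and its values overlapped those of the yak at puberty.

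Endothelial cells are held together at their junctions by adhesion proteins such as VE-cadherin (*CDH5*), PECAM1 and claudin 5 (*CLDN5*). Their growth and rest are set by receptors for vascular endothelial growth factors (*KDR*, *FLT1*), for angiopoietins (*TEK*, with its partner *TIE1*) and by endoglin (*ENG*), a co-receptor of the BMP and TGF-beta family. In the testis, the vessels run in the interstitium between the seminiferous tubules, beside the Leydig cells, and do not enter the tubules in which sperm form.

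Ribo-seq sequences the stretches of mRNA covered by ribosomes, the ribosome footprints (RFs), so the level of a gene reflects both how much of its mRNA is present and how much of it is being translated. RFs of whole testis were measured in 12 libraries, 3 in each of 4 groups: yak of 6 months (6M, juvenile), 18 months (18M, puberty) and 4 years (4Y, sexual maturity), and cattle–yak of 4 years. No treatment of the animals is described. The cattle–yak is the hybrid of a Jersey bull and a Gannan yak cow, its males are sterile, and its reads were aligned to the yak genome. The labels describe castration of all animals, whereas the methods of the study describe euthanasia of the 4Y yaks and castration of the cattle–yaks, so the way of collection cannot be told apart from the hybrid cross.

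Totals ran from 25816963 to 37167651 counts per library at 6M, from 21309151 to 24542362 at 18M, from 16304058 to 17862516 at 4Y and from 38437889 to 52616039 in cattle–yak. 1 library stood apart from its group: in replicate 2 of 18M, 6 markers of spermatids, the last germ cells before sperm, summed to 7216 FPKM, against 2.93 and 17.2 in the other 18M libraries. The same sum was 9711 to 12553 FPKM at 4Y, 1.43 to 1.83 at 6M and 3.13 to 32.3 in cattle–yak. Every comparison with 18M is therefore given with and without this library. Markers of Sertoli cells, the somatic cells of the tubule, were found in every group, with a lowest sum of 167 FPKM.

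FPKM (fragments per kilobase of gene, scaled to the total of the library) gives the levels below, and is the scale on which genes were compared with each other. Differences are log2 fold changes of counts ± SE from edgeR's quasi-likelihood test, after TMM scaling between libraries. A gene was called a differentially translated gene (DTG) when its Benjamini-Hochberg adjusted p was below 0.05 and its fold was 2 or more in either direction (1 on the log2 scale). Each test compared 3 libraries with 3. TMM moved the comparisons with 6M: from 6M to 4Y, the median log2 fold change of all genes was 0.08 with TMM and 0.64 with the library size alone, and from 6M to cattle–yak it was -0.02 with TMM and 0.52 with the library size alone.

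At 6M the levels of the members spanned from 156 ± 68.3 FPKM (SD, n = 3) for *CLDN5* to 2.15 ± 0.346 for *VWF*. *CLDN5* and *ENG* held the first and the second place in all 4 groups. *VWF* was the lowest of the 9 at 6M and the third highest at 4Y. *CLDN5* made up 64.7% of the summed FPKM of the 9 genes at 6M and 25.9% at 4Y, while the share of *VWF* was 0.970% at 6M and 17.5% at 4Y.

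**Figure D1:**
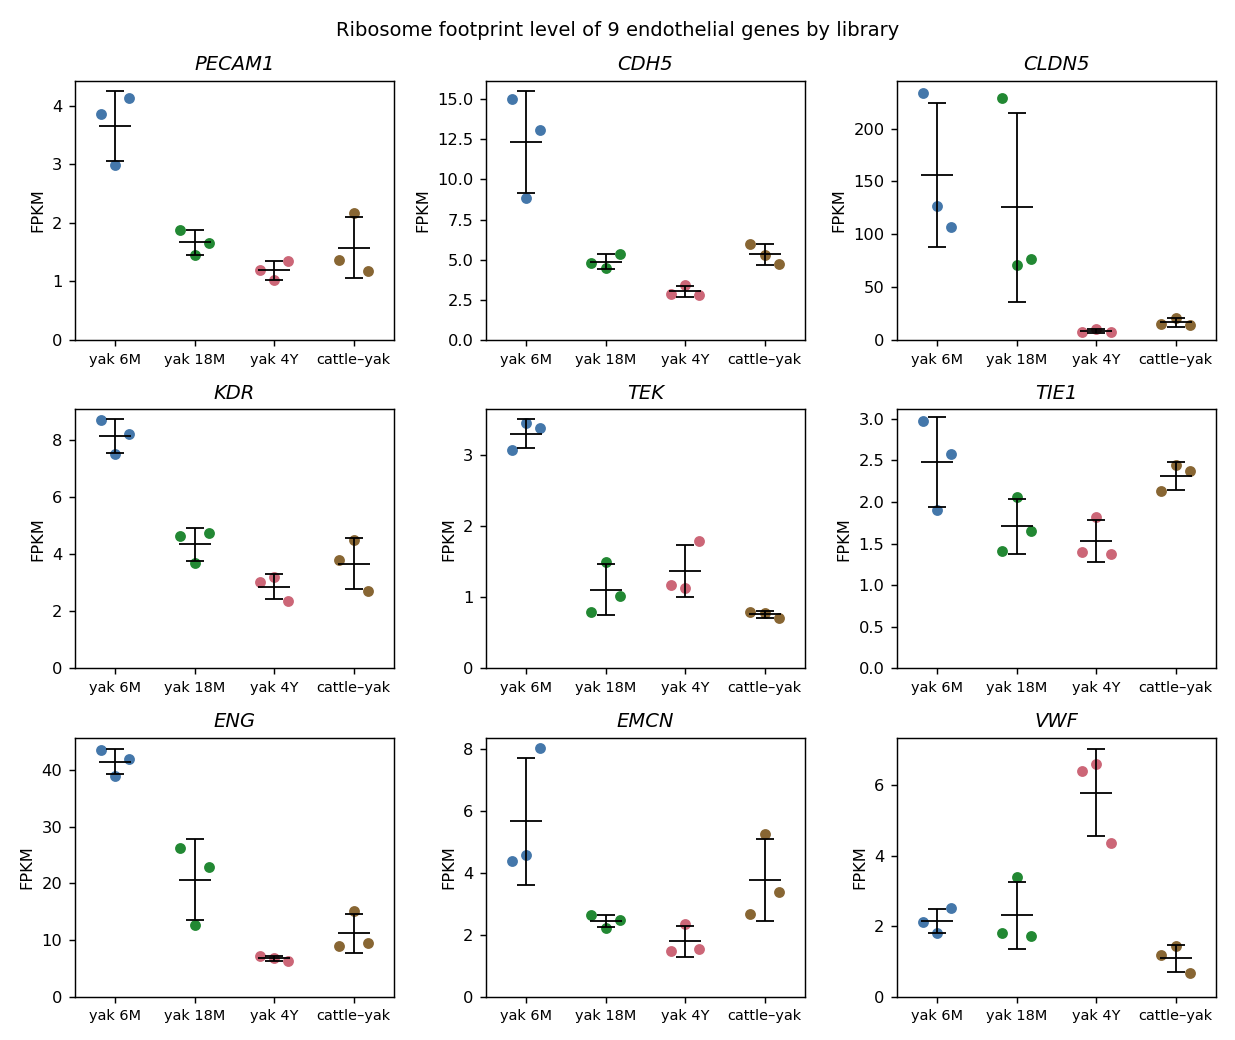
FPKM of the 9 endothelial genes in each library (points), by group on the x axis, with the mean and SD of 3 libraries (black). For 8 genes all 4Y libraries lie below all 6M libraries, and for *VWF* they lie above, at 4.36 to 6.59 against 1.82 to 2.51 FPKM.

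From 6M to 4Y in the yak, 8 of the 9 genes fell as DTGs and none rose. Of all 16133 genes tested, 24.7% were called lower and 31% higher. The median log2 fold change of the 9 genes was -2.19, beside 0.08 over all genes tested. Levels are relative to each library, so in whole tissue a smaller share of endothelial cells and fewer RFs of these genes per cell cannot be told apart. The sum of 6 spermatid markers was 1.43 to 1.83 FPKM at 6M and 9711 to 12553 at 4Y. Whether the number of endothelial cells changed, or only their share beside more germ cells, was not tested. The 8 genes were also called lower with DESeq2 (19.7% of all genes lower and 28.2% higher), under the 3 other scalings, and with each library left out in turn. With the library size alone, 15.5% of all genes were lower and 40.9% higher. With limma on log2(FPKM + 1), 6 genes were called lower, beside 11.6% of all genes lower and 31.8% higher. The FPKM of all 9 genes did not overlap between 6M and 4Y, with 8 lower and 1 higher at 4Y, beside 20.2% of 19522 genes lower and 47.7% higher without overlap.

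Among the junction proteins, *CDH5* (ENSBGRG00000011034), the cadherin specific to endothelial contacts, measured 15.0, 8.85 and 13.1 FPKM in the 6M libraries, 4.79, 4.47 and 5.37 at 18M, 2.86, 3.39 and 2.81 at 4Y, and 6, 5.28 and 4.7 in cattle–yak. The 4Y libraries were the lowest, the 6M libraries the highest, and the 18M and cattle–yak libraries overlapped between them. *CDH5* fell by 2.61 ± 0.26 on the log2 scale from 6M to 4Y (adjusted p = 2.28e-05), or 6.13-fold.

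*PECAM1* (ENSBGRG00000011037), an adhesion protein of endothelium that platelets and leukocytes also carry, measured 3.86, 2.98 and 4.13 FPKM at 6M, 1.88, 1.45 and 1.66 at 18M, 1.2, 1.02 and 1.34 at 4Y, and 1.37, 2.16 and 1.18 in cattle–yak. Only the 6M libraries stood clear of all others, and cattle–yak overlapped both 18M and 4Y. The fall from 6M to 4Y was 4.57-fold (log2 fold change -2.19 ± 0.27, adjusted p = 8.37e-05).

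*CLDN5* (ENSBGRG00000020524), a claudin that seals tight junctions of vessels, measured 234, 127 and 106 FPKM at 6M, 229, 70.8 and 77.0 at 18M, 7.21, 10.8 and 7.69 at 4Y, and 14.6, 21.1 and 13.7 in cattle–yak. Replicate 1 was the highest at both 6M and 18M, and the groups of 6M and 18M overlapped. Both groups lay far above both groups of 4 years. *CLDN5* fell 27.8-fold from 6M to 4Y (log2 fold change -4.80 ± 0.39, adjusted p = 6.82e-06), the largest change among the 9 genes in that comparison, and its place among all genes of the table moved from percentile 95.7 to percentile 55.8.

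Among the receptors, *KDR* (ENSBGRG00000023842), the main signalling receptor for VEGFA, measured 8.73, 7.52 and 8.23 FPKM at 6M, 4.63, 3.69 and 4.74 at 18M, 3.03, 3.21 and 2.36 at 4Y, and 3.82, 4.49 and 2.73 in cattle–yak. The levels stepped down with age without overlap between the yak groups, and cattle–yak overlapped both 18M and 4Y. *KDR* fell 4.24-fold from 6M to 4Y (log2 fold change -2.08 ± 0.19, adjusted p = 1.44e-05).

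*ENG* (ENSBGRG00000007082) measured 43.5, 39.0 and 41.9 FPKM at 6M, 26.3, 12.6 and 22.9 at 18M, 7.27, 6.76 and 6.32 at 4Y, and 9.01, 15.2 and 9.4 in cattle–yak. The 3 yak groups did not overlap, and replicate 2 of 18M, the library with spermatid markers, was the lowest of its group. *ENG* fell 9.10-fold from 6M to 4Y (log2 fold change -3.19 ± 0.17, adjusted p = 4.85e-07).

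The 2 receptors of the TIE family took different courses after 6M. *TEK* (ENSBGRG00000000666), which binds angiopoietins, measured 3.08, 3.46 and 3.38 FPKM at 6M, 0.8, 1.5 and 1.02 at 18M, 1.18, 1.13 and 1.79 at 4Y, and 0.8, 0.78 and 0.71 in cattle–yak. Its 6M libraries were the highest by far, 18M and 4Y overlapped, and the cattle–yak libraries were at or below the lowest yak library. *TEK* fell 3.63-fold from 6M to 4Y (log2 fold change -1.86 ± 0.23, adjusted p = 9.58e-05).

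*TIE1* (ENSBGRG00000010328), which binds no angiopoietin itself and acts on TEK, measured 2.97, 1.9 and 2.58 FPKM at 6M, 1.41, 2.06 and 1.65 at 18M, 1.4, 1.82 and 1.37 at 4Y, and 2.13, 2.45 and 2.37 in cattle–yak. On counts it fell 3.86-fold from 6M to 4Y (log2 fold change -1.95 ± 0.30, adjusted p = 0.000378), although its mean FPKM at 6M was only 1.62 times that at 4Y. The gene length implied by its counts and FPKM was not the same in all libraries: it was 2902 to 3352 bases at 6M, 1815 to 2248 at 4Y and 2558 to 2757 in cattle–yak. For the other 8 genes the implied length varied by at most 1.04-fold, so only for *TIE1* do the scales differ in this way. TMM scaling, which FPKM lacks, enters the gap as well. The other genes that fell also had larger folds on counts than on mean FPKM, such as 6.13 against 4.08 for *CDH5* and 9.10 against 6.11 for *ENG*. With limma on FPKM, *TIE1* was not called in this comparison.

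*EMCN* (ENSBGRG00000002544), endomucin, a mucin-like surface protein of capillaries and veins, measured 4.39, 4.59 and 8.03 FPKM at 6M, 2.63, 2.23 and 2.47 at 18M, 1.48, 2.36 and 1.54 at 4Y, and 2.69, 5.26 and 3.4 in cattle–yak. It rested on few counts, 19 to 32 per library at 4Y. Cattle–yak overlapped 6M and lay above both older yak groups. *EMCN* fell 4.65-fold from 6M to 4Y (log2 fold change -2.22 ± 0.37, adjusted p = 0.000585).

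*VWF* (ENSBGRG00000002102), von Willebrand factor, is a clotting protein that endothelial cells store in granules and that megakaryocytes also make. It measured 2.12, 1.82 and 2.51 FPKM at 6M, 1.82, 3.4 and 1.71 at 18M, 6.4, 6.59 and 4.36 at 4Y, and 1.18, 1.43 and 0.68 in cattle–yak. All 4Y libraries lay above all others, and all cattle–yak libraries below all others. From 6M to 4Y the log2 fold change was 0.85 ± 0.21 (adjusted p = 0.00569), short of the fold threshold for a DTG. With the library size alone it was 1.43, with 4Y replicate 3 left out 1.03, and *VWF* was called higher in both, beside 40.9% of all genes with the library size alone and 29% higher and 23.6% lower without 4Y replicate 3. Within 18M, *VWF* was highest in replicate 2, the library with spermatid markers. The part of germ cells in this result was not tested.

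**Figure D2:**
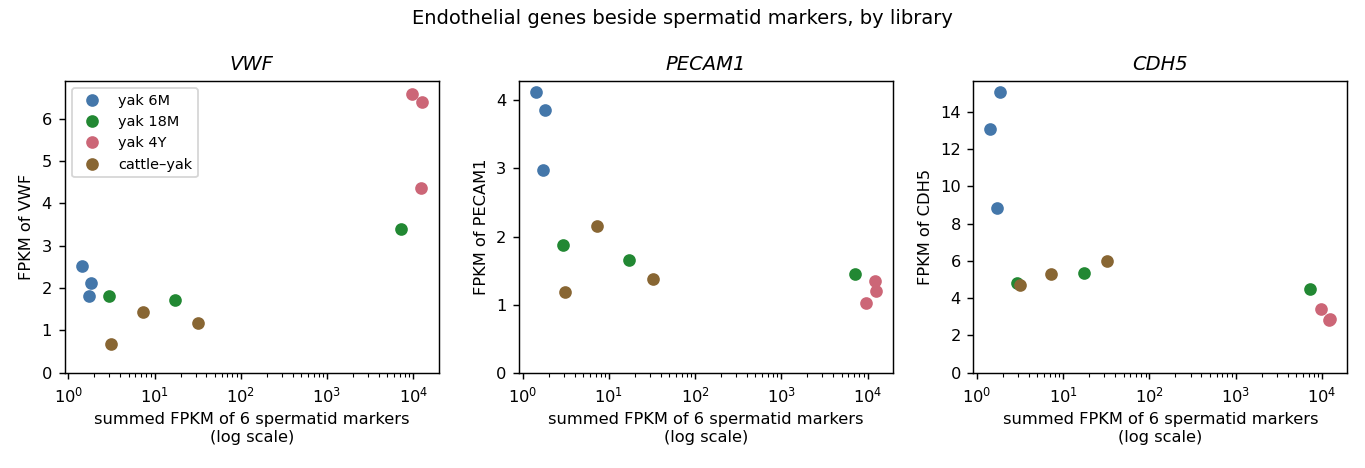
FPKM of *VWF*, *PECAM1* and *CDH5* (y axes) beside the summed FPKM of 6 spermatid markers (x axis, log scale), 1 point per library, coloured by group. The 18M library at 7216 FPKM of spermatid markers has the highest *VWF* of its group, 3.4 FPKM, and the lowest *PECAM1* and *CDH5*, 1.45 and 4.47 FPKM. Of all 9 genes, 3 were highest of the 18M libraries in it (*VWF*, *TEK* and *TIE1*) and the other 6 lowest.

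Single genes of other lists, *SELP*, *PROX1* and *ITGA2B*, were also highest at 4Y. Most genes listed with *SELP* and *PROX1* went the other way. From 6M to 4Y, 0 of 14 tested surface and junction genes were called higher and 9 lower. Of 3 lymphatic markers, 1 was called higher and 2 lower, beside 31% higher and 24.7% lower of all genes tested. *SELP*, P-selectin, a leukocyte adhesion receptor stored in the same granules, measured 0.85, 0.85 and 1.26 FPKM at 6M, 0.26, 1.81 and 0.12 at 18M, 3.05, 2.82 and 2.8 at 4Y, and 0.28, 0.14 and 0 in cattle–yak. It was highest at 4Y without overlap, and again higher in replicate 2 than in the other 18M libraries. From 6M to 4Y, *SELP* was not called higher. *PROX1*, a transcription factor of lymphatic endothelium, measured 12.6 to 15.3 FPKM at 4Y, against 1.7 to 2.47 at 6M and 1.38 to 2.02 in cattle–yak, and its 18M libraries were at 1.91, 8.31 and 2.25. *PROX1* rose from 6M to 4Y (log2 fold change 2.23 ± 0.19, adjusted p = 9.17e-06). *ITGA2B*, a platelet integrin and the only tested gene of 8 listed blood and platelet markers, rose as well (log2 fold change 1.23 ± 0.18, adjusted p = 0.000234), with 6.28 FPKM in 18M replicate 2 and 2.09 and 2.71 in the other 18M libraries. Unlike those of *VWF*, its cattle–yak libraries, at 3.01 to 4.61 FPKM, lay above its 6M libraries, at 1.91 to 2.66. On counts after TMM scaling, this difference was only 0.14 on the log2 scale, and *ITGA2B* was not called.

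For *FLT1*, the second VEGFA receptor, 2 rows without a symbol were described as vascular endothelial growth factor receptor 1, and were not counted as members. ENSBGRG00000006327 measured 2.5, 2.26 and 2.02 FPKM at 6M, 1.85, 12.01 and 1.43 at 18M, 31.1, 18.9 and 20.01 at 4Y, and 1.44, 1.44 and 1.27 in cattle–yak. It rose from 6M to 4Y (log2 fold change 2.72 ± 0.26, adjusted p = 1.60e-05) and fell from 4Y yak to cattle–yak (-3.97 ± 0.24, adjusted p = 3.91e-06), and its 18M replicate 2 stood above the others. ENSBGRG00000006167 had 10 to 52 counts per library and means of 1.27, 0.477, 1 and 0.49 FPKM at 6M, 18M, 4Y and in cattle–yak. The 2 rows did not follow each other, and which of them holds the reads of *FLT1* was not tested.

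Between cattle–yak and yak at 4Y, the comparison that sets the sterile hybrid against the mature yak, 2 of the 9 genes rose as DTGs, *EMCN* and *TIE1*, and 1 fell, *VWF*. Of all 16498 genes tested, 17.1% were called higher and 27% lower. The median log2 fold change of the 9 genes was 0.73, beside -0.00 over all genes tested. The direction was above 0 for 7 genes, and below 0 for *VWF* and *TEK*.

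*VWF* fell 5.23-fold in cattle–yak (log2 fold change -2.39 ± 0.30, adjusted p = 0.000182), and was called with each library left out in turn. *EMCN* rose 2.14-fold (1.10 ± 0.37, adjusted p = 0.0297), but only in 3 of the 6 fits that left out a library, and leaving out cattle–yak replicate 2 gave 0.79 on the log2 scale with an adjusted p of 0.103. *EMCN* was also not called without 4Y replicate 1 (adjusted p = 0.0753) or 4Y replicate 3 (adjusted p = 0.0725). *TIE1* rose 2.01-fold (1.01 ± 0.22, adjusted p = 0.0037), close to the fold threshold, and had log2 fold changes of 0.98 without 4Y replicate 3 and 0.99 without cattle–yak replicate 2. On log2(FPKM + 0.1) the log2 fold change of *TIE1* was 0.58.

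A further 4 genes had an adjusted p below 0.05 with a fold under the threshold. *CLDN5*, which passed both thresholds in 3 of the 6 fits that left out a library, was higher in cattle–yak by 0.95 ± 0.25 (adjusted p = 0.00944), *CDH5* by 0.83 ± 0.19 (adjusted p = 0.00504) and *ENG* by 0.73 ± 0.22 (adjusted p = 0.0194), all on the log2 scale. *TEK* had a log2 fold change of -0.80 ± 0.27 (adjusted p = 0.0284). Without a fold threshold, 5 genes were called higher and 2 lower, and 31.5% of all genes tested were higher and 34.2% lower by the same rule. *PECAM1* (0.41 ± 0.32, adjusted p = 0.281) and *KDR* (0.37 ± 0.23, adjusted p = 0.191) had FPKM values that overlapped between the groups. Of the cattle–yak libraries, replicate 2 was the highest for 7 of the 9 genes and replicate 3 the lowest for 6.

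**Figure D3:**
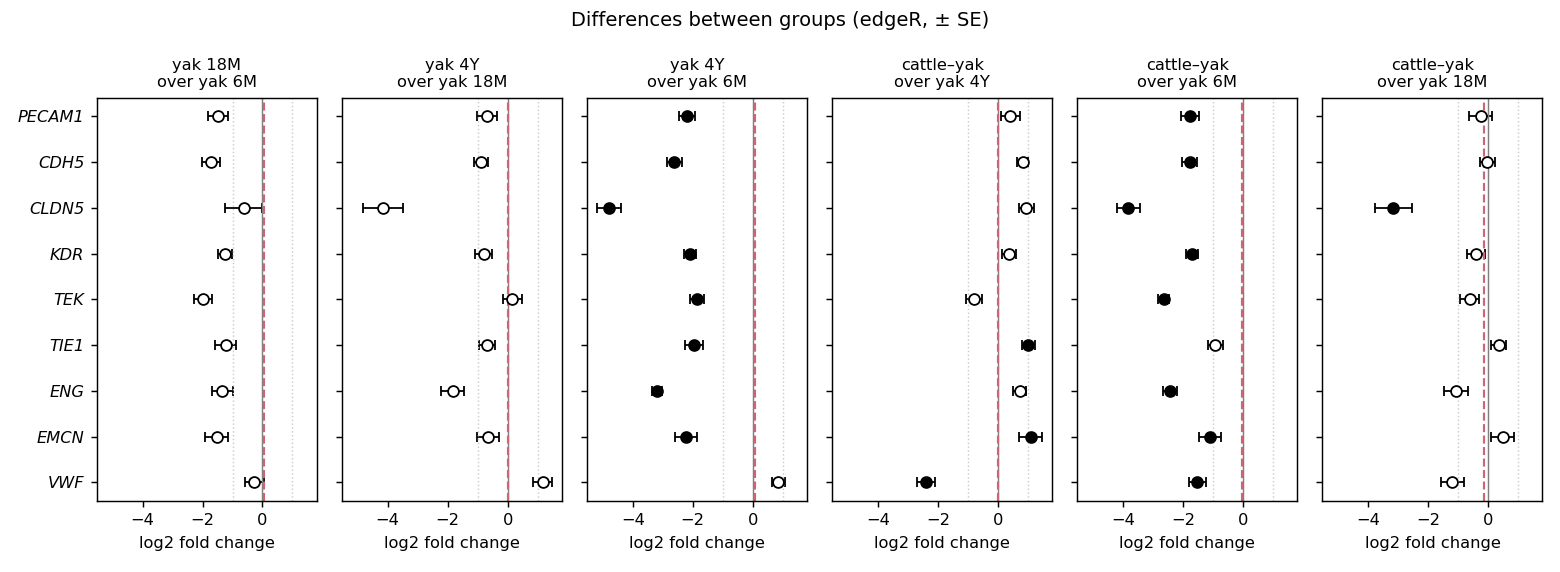
Log2 fold change ± SE (x axes) of the 9 genes (y axis) in the 6 comparisons, from edgeR. Filled points are DTGs, dotted lines mark a log2 fold change of 1 in size, and the red dashed line is the median of all genes tested. The filled points include 8 genes below 0 in each of the 2 comparisons of a 4-year group with 6M.

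Compared with 6M, the cattle–yak had 8 of the 9 genes called lower and none higher, with 19.7% and 18.1% of all 15571 genes tested called lower and higher. The median of the 9 genes was -1.76 beside -0.02 over all genes. *TEK* fell by 2.65 ± 0.18 on the log2 scale (adjusted p = 2.07e-05), *ENG* by 2.43 ± 0.23 (adjusted p = 7.95e-05) and *VWF* by 1.52 ± 0.28 (adjusted p = 0.00219). *TIE1* was the exception, at -0.92 ± 0.26 (adjusted p = 0.0169), and *EMCN* was called at -1.10 ± 0.35 (adjusted p = 0.027) though its FPKM values overlapped. The *EMCN* call was lost without 6M replicate 3 (-0.81, adjusted p = 0.0972), cattle–yak replicate 1 (-0.90, adjusted p = 0.0873) or cattle–yak replicate 3 (-1.01, adjusted p = 0.0846). With the library size alone 6 genes were called lower, beside 12% of all genes lower and 31.3% higher, and *EMCN* and *VWF* were then at -0.57 and -0.97. The comparisons of 6M with 4Y and with cattle–yak share the 6M libraries.

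At puberty the level of most members lay between that of 6M and that of 4Y, but edgeR called none of them higher or lower than at 6M or 4Y. From 6M to 18M it called 0 of the 9 genes, beside 0.0471% of all 14874 genes tested called lower and 0.0202% called higher. All 9 log2 fold changes were below 0, with a median of -1.34 beside 0.05 over all genes, and 7 genes had an unadjusted p below 0.05. *TEK* was at -1.98 ± 0.30 (adjusted p = 0.0533), *CDH5* at -1.71 ± 0.30 (adjusted p = 0.0588), *KDR* at -1.26 ± 0.24 (adjusted p = 0.0596) and *PECAM1* at -1.48 ± 0.33 (adjusted p = 0.0718). DESeq2 called 7 genes lower, beside 4.29% of all genes lower and 5.85% higher, and a fit of all 12 libraries called 7 lower, beside 4.9% of all genes lower and 10.8% higher. With limma on log2(FPKM + 1), 0 genes were called, beside 0.0744% of all genes lower and 0.0687% higher. Without 18M replicate 2, 1 gene was called lower, *TEK* at -2.20 (adjusted p = 0.0404), beside 0.279% of all genes lower and 0.226% higher. Without 18M replicate 1, the library with the high *CLDN5*, 6 genes were called lower, beside 8.08% of all genes lower and 8.7% higher.

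From 18M to 4Y, edgeR again called 0 of the 9 genes, beside 0% of all 16175 genes called higher and 0.0371% called lower, while 6 genes had an unadjusted p below 0.05. *CLDN5* was at -4.15 ± 0.66 (adjusted p = 0.0691), *ENG* at -1.83 ± 0.38 (adjusted p = 0.0692) and *VWF* at 1.17 ± 0.32 (adjusted p = 0.082). Without 18M replicate 2, *CLDN5* was called lower at -4.45 (adjusted p = 0.000465), *ENG* lower at -2.10 (adjusted p = 0.000248) and *VWF* higher at 1.48 (adjusted p = 0.00309), beside 18.5% of all genes called lower and 26.1% called higher. Without 18M replicate 1, *CLDN5* was the 1 member called (-3.20, adjusted p = 0.0447), beside 0.116% of all genes lower and 0% higher. DESeq2 called the same 3 genes on all libraries, beside 10.2% of all genes lower and 6.34% higher. With limma on log2(FPKM + 1), 0 genes were called, beside 0.122% of all genes lower and 0.00555% higher.

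Between cattle–yak and yak of 18M, *CLDN5* alone was called, lower by 3.16 ± 0.61 on the log2 scale (adjusted p = 0.0384), beside 2.34% of all 15702 genes called lower and 3.45% called higher. The call was kept in 2 of the 6 fits that left out a library. It was lost without 18M replicate 3, where 0.514% of all genes were called lower and 1.82% higher, and without each of the cattle–yak libraries, where 0% of all genes were called in either direction. In these 4 fits the log2 fold change of *CLDN5* was -3.06 to -3.44, with adjusted p values up to 0.172. Without 18M replicate 2, *CLDN5* (-3.50, adjusted p = 0.0119) and *ENG* (-1.37, adjusted p = 0.0233) were called lower, beside 8.04% of all genes lower and 7.22% higher. *CDH5* was at -0.02 ± 0.24, the smallest difference of the 9.

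In the order of the groups, the 6M level was the highest for 8 of the 9 genes and the 4Y level the lowest for 7. The exceptions at the lower end were *TEK* and *VWF*, both lowest in cattle–yak. Neighbours in this order whose FPKM values overlapped were 18M and cattle–yak for *PECAM1*, *KDR*, *CDH5*, *ENG* and *TEK*, cattle–yak and 4Y for *PECAM1* and *KDR*, 18M and 4Y for *EMCN*, *TIE1* and *TEK*, 6M and 18M for *CLDN5* and *VWF*, and 6M and cattle–yak for *EMCN* and *TIE1*. *EMCN*, *CDH5* and *TIE1* had cattle–yak second, before 18M. Between these 2 groups *CDH5* overlapped (adjusted p = 0.968), whereas *EMCN* and *TIE1* did not overlap and had adjusted p values of 0.434 and 0.392.

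The ligands of these receptors were listed as 12 genes, of which 10 had a row. Between 6M and 4Y, 6 of the 8 ligands tested fell and none rose. Of all genes tested, 24.7% were called lower and 31% higher in this comparison, for this list and those below. *VEGFA*, the main ligand of KDR, fell by 1.27 ± 0.32 on the log2 scale (adjusted p = 0.0057). *VEGFD*, a ligand of KDR and of the lymphatic receptor FLT4 in humans, fell by 5.03 ± 0.43 (adjusted p = 9.09e-06). *BMP10*, a ligand of the endoglin complex, had no count in any library.

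In cattle–yak against 4Y yak, 2 of 6 ligands tested were called higher and 1 lower. Of all genes tested, 17.1% were called higher and 27% lower in this comparison, for this list and those below. *VEGFA* measured 7.05, 10.7 and 6.6 FPKM in cattle–yak and 3.46, 5 and 2.87 at 4Y, without overlap, and rose by 1.05 ± 0.28 (adjusted p = 0.0106). *ANGPT1* and *ANGPT2*, angiopoietins that compete for TEK, parted. *ANGPT1*, the activating ligand, measured 0.66, 0.88 and 1.39 FPKM in cattle–yak and 1.91, 2.2 and 2.37 at 4Y, and fell by 1.31 ± 0.31 (adjusted p = 0.00593). *ANGPT2*, which blocks or weakly activates TEK depending on the setting, measured 4.65, 10.8 and 4.28 FPKM in cattle–yak and 3.51, 2.73 and 2.3 at 4Y, and its log2 fold change was 1.21 ± 0.39 (adjusted p = 0.0241). The *ANGPT2* call was lost without cattle–yak replicate 2, 4Y replicate 2 or 4Y replicate 3, with a lowest log2 fold change of 0.67. *ANGPT4*, another angiopoietin and at a higher level, measured 16.27, 28.63 and 24.79 FPKM in cattle–yak and 10.79, 12.25 and 14.35 at 4Y. These values did not overlap, but *ANGPT4* was not among the ligands called higher.

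Of the other vascular receptors and co-receptors, 9 of 10 tested were called lower from 6M to 4Y, from *APLNR*, the apelin receptor, at -5.71 ± 0.74 (adjusted p = 0.000121), to *PTPRB*, a phosphatase that acts on TEK, at -1.16 ± 0.22 (adjusted p = 0.00138). *APLNR* rested on 0 to 5 counts per 4Y library, so the size of its change is uncertain. The median of the list was -2.55, beside -2.19 for the 9 genes above. The hybrid had 4 of 9 called higher than 4Y yak and none lower, between *ROBO4* (1.40 ± 0.27, adjusted p = 0.00208), a guidance receptor of endothelium, and *FLT4* (1.83 ± 0.28, adjusted p = 0.000533). *FLT4*, the receptor for VEGFC that marks lymphatic vessels, measured 1.75 to 1.95 FPKM in cattle–yak, 0.36 to 0.68 at 4Y and 2.34 to 2.6 at 6M.

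Of the other endothelial surface and junction genes, 9 of 14 tested were called lower from 6M to 4Y, with a median of -1.83. In this list the call of *ESAM*, a junction protein (-1.22 ± 0.46, adjusted p = 0.0384), was lost in 4 of 6 fits that left out a library, while *MYCT1*, at -2.87 ± 0.53 (adjusted p = 0.00103), rested on 3 to 9 counts per 4Y library. Against 4Y yak, the cattle–yak had 5 of 14 called higher and 1 lower, with a median of 0.78. *TM4SF1*, a surface protein of endothelium, measured 37.8 to 55.7 FPKM in cattle–yak and 8.37 to 9.65 at 4Y, and rose by 2.41 ± 0.19 (adjusted p = 1.55e-05). *SELP* was the 1 gene called lower (-4.26 ± 0.79, adjusted p = 0.00169).

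Endothelial transcription factors were split. Of 10 tested, 5 were called lower and 2 higher from 6M to 4Y, beside 24.7% and 31% of all genes. *ETS1* was at -2.27 ± 0.29 (adjusted p = 0.000119) and *KLF4* at 2.89 ± 0.30 (adjusted p = 3.04e-05). The same genes marked both ends in cattle–yak against 4Y yak, with *ETS1* called higher (1.22 ± 0.20, adjusted p = 0.000783) and *KLF4* called lower (-1.39 ± 0.17, adjusted p = 0.000175). *ETS1* is expressed by many cell types besides endothelium, and *KLF4* is a known gene of Sertoli cells and round spermatids. *KLF4* measured 0.65 to 1.52 FPKM at 6M, 2.73, 8.08 and 5.36 at 18M, 10.6 to 11.6 at 4Y and 3.63 to 4.73 in cattle–yak. Its level was thus highest at 4Y, where the spermatid sum was highest, and the part of other cells in it was not tested.

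The 3 lymphatic markers with a row did not move as 1 group. *CCL21*, a chemokine of lymphatic vessels, fell from 6M to 4Y by 3.69 ± 0.40 (adjusted p = 3.88e-05), as *FLT4* did, while *PROX1* rose. Between 4Y yak and cattle–yak, *CCL21* rose by 3.41 ± 0.38 (adjusted p = 9.04e-05), to 35.9 to 54.7 FPKM from 2.84 to 6.85, and *PROX1* fell by 3.06 ± 0.22 (adjusted p = 8.10e-06).

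**Figure D4:**
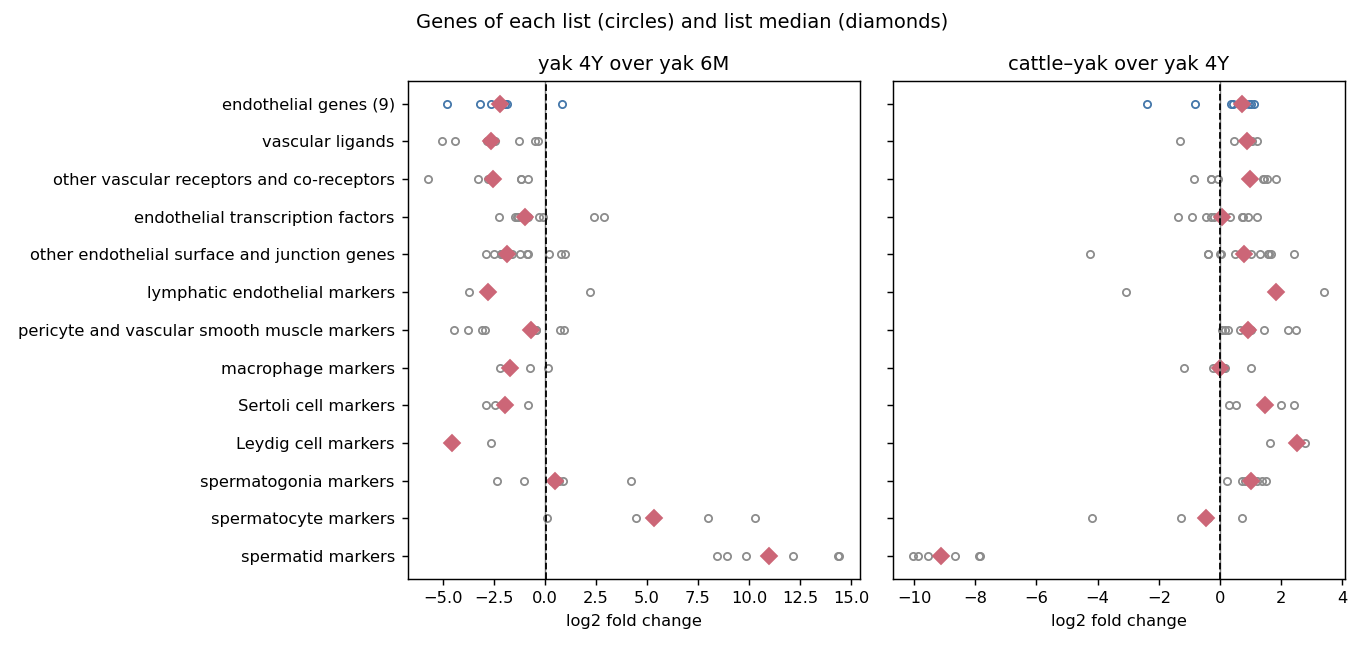
Log2 fold change (x axes) of every tested gene (circles) of each gene list (y axis), with the list median (diamonds) and the median of all genes tested (dashed line), for 4Y over 6M yak (left) and cattle–yak over 4Y yak (right). The 9 endothelial genes have medians of -2.19 and 0.73, those of spermatid markers are 10.99 and -9.11.

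Other cells of the testis moved in the same comparisons. From 6M to 4Y, all 3 Leydig cell markers tested were called lower (median -4.56), as were 4 of 5 Sertoli cell markers, 4 of 6 macrophage markers and 4 of 9 markers of pericytes and vascular smooth muscle, the cells that wrap vessels. All 6 spermatid markers were called higher, with a median of 10.99. The summed level of Leydig cell markers was 1689 to 2654 FPKM at 6M, 86.3 to 218 at 4Y and 672 to 1134 in cattle–yak. That of Sertoli cell markers was 563 to 607 FPKM at 6M, 167 to 248 at 4Y and 508 to 546 in cattle–yak.

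In cattle–yak against 4Y yak, most of these lists moved the other way: 3 of 3 Leydig cell markers, 3 of 5 Sertoli cell markers and 4 of 9 pericyte and smooth muscle markers were called higher and none lower, and all 6 spermatid markers were called lower. *ACTA2*, smooth muscle actin, which myoid cells around the tubules also carry, rose by 2.49 ± 0.22 (adjusted p = 2.34e-05). *PDGFRB*, a receptor of pericytes, was called at 1.02 ± 0.31 (adjusted p = 0.0177), and without cattle–yak replicate 2 it was at 0.55. Macrophage markers had 1 of 6 called higher and 1 lower, beside 17.1% and 27% of all genes. The summed level of pericyte and smooth muscle markers was 587 to 969 FPKM in cattle–yak, 176 to 184 at 4Y and 288 to 529 at 6M. *ACTA2* made up most of the cattle–yak sum, at 424 to 746 FPKM against 32.0 to 49.4 at 6M. *PDGFRB* was at 8.57 to 20.1 FPKM in cattle–yak and 84.7 to 104 at 6M. From 6M to cattle–yak, 2 of these 9 markers were called higher and 4 lower, beside 18.1% and 19.7% of all genes. The part of the germ cell content of the tissue in the differences of endothelial genes was not tested.

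The 9 genes varied among themselves. After each gene was centred on its mean log2 CPM over the 12 libraries, *KDR* lay closest to the mean profile of the 9, with a root mean square difference of 0.148, followed by *PECAM1* (0.196) and *CDH5* (0.302). Both *KDR* and *PECAM1* enter that mean themselves. *VWF* (1.21) and *CLDN5* (1.29) lay farthest from it. Among the pairs of members, *PECAM1* and *KDR* were the most alike, with a difference of 0.220.

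Among 7015 genes with a symbol that lay above the median level, the 10 closest to the mean profile were *SREBF2*, *EIF2AK3*, *MOGS*, *IKBIP*, *OGFOD3*, *TRAM2*, *ADGRE5*, *EXT1*, *ACVR1* and *IL17RD*, with differences of 0.193 to 0.247 over the 12 libraries. *SREBF2*, a regulator of cholesterol synthesis, had mean levels of 66.8 FPKM at 6M, 43.4 at 18M, 24.9 at 4Y and 26.9 in cattle–yak. *ACVR1*, a BMP type I receptor, had means of 27.6, 18.2, 12.7 and 13.9 FPKM in the same order.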

How the data were processed

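Ribo-seq libraries of testis came from 4 groups of 3 libraries, taken from the labels. The authors removed rRNA and other small RNA, kept short footprint reads and aligned them to the yak genome (BosGru 3.0). The authors' expected counts per gene come from RSEM and were deposited as whole numbers. The FPKM values were deposited by the authors and divide these counts by gene length and library total. The deposited fold changes, p-values and FDR of the authors' comparisons and the tables of group means were not used. The count and FPKM columns of the yak libraries at puberty and at sexual maturity, 12 columns, occur in more than 1 table with 0 differing values. Those of the juvenile yak and the cattle–yak are not repeated, so they could not be compared in this way.

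Each test used the 6 libraries of 2 groups: filterByExpr, TMM and edgeR's quasi-likelihood test (R 4.3.3, edgeR 4.0.16), adjusted over all genes tested. Calls needed an adjusted p below 0.05 and a change of 1 or more on the log2 scale. The SE is the size of the change on the log2 scale over the square root of F. Code was tested on simulated data. Likeness used log2 CPM with a prior count of 2. Alternatives were DESeq2 1.42.0, library size, RLE or upper quartile scaling, no filter, no fold threshold, all 12 libraries in 1 fit, limma 3.58.1 on log2(FPKM + 1) or log2(FPKM + 0.1) for genes with a mean FPKM of at least 0.1, a block for the replicate number, and leaving out each library. Tables and figures used Python 3.11.15, pandas 2.3.3, numpy 2.4.6 and matplotlib 3.10.9.

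The members and the 13 other gene lists were chosen with earlier results of these data known. Of the other lists, text gives counts and, by name, the called genes with the largest and smallest log2 fold change of a list in a comparison, and the 10 genes most like the members' mean profile. Some of these genes, such as *VEGFA*, *ANGPT4* and *SELP*, are also given in comparisons where they were not at an end of their list. *BMP10* and the *FLT1*-like rows were named after their values were seen. Markers of the lists come from general knowledge. The study took 1 animal per library, so p-values measure the spread between animals together with that of library preparation. Counting error is largest where counts are low, and footprints without molecular identifiers are not independent molecules. Strand use in counting is not given in the sources used here.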

Additional observations from a re-analysis of the deposited data

How the results depend on the processing

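Of the log2 fold changes of single genes under the alternatives other than no fold threshold, 720 kept their direction and their side of the thresholds, 48 passed newly, 31 no longer passed and 11 changed sign. Under the alternatives run, 6 to 8 genes were called lower from 6M to 4Y (11.6% to 34.8% of all genes). *VWF* was called lower in cattle–yak against 4Y yak under each (20.1% to 34.2% of all genes). Genes called lower from 6M to 18M (0 in the main test) were 7 with DESeq2 (4.29% of all genes), 1 with upper quartile scaling (0.343%), 7 with all 12 libraries in 1 fit (4.9%), and 0 to 6 with a library left out (0% to 8.08%). From 18M to 4Y, 1 gene was called higher and 2 lower with DESeq2 (6.34% and 10.2% of all genes) and with all 12 libraries in 1 fit (6.63% and 14%), and leaving out a library gave 0 to 1 higher and 0 to 2 lower (0% to 26.1% and 0% to 18.5%). From 6M to 4Y, 1 gene, *VWF*, was called higher without a fold threshold (37.7% of all genes higher) and with the library size alone (40.9%). The same 1 gene was called higher with limma on log2(FPKM + 1) (31.8%) and on log2(FPKM + 0.1) (40%). With a library left out, 0 to 1 genes were called higher (29% to 31.3%). In cattle–yak against 4Y yak, genes called higher (2 in the main test, 17.1% of all genes) were 5 without a fold threshold (31.5%), 1 with DESeq2 (13.7%) and 1 with RLE scaling (16%). They were 0 with limma on log2(FPKM + 1) (12.5%), 1 with limma on log2(FPKM + 0.1) (15.6%) and 0 to 3 with a library left out (16.4% to 18.3%). Without a fold threshold, 2 were lower (34.2% of all genes). In cattle–yak against 6M, limma on log2(FPKM + 1) called 4 genes lower (8.08% of all genes) instead of 8 (19.7%), and leaving out a library gave 7 to 9 (17.9% to 19.6%). In cattle–yak against 18M, genes called lower (1 in the main test) were 2 with DESeq2 (7.58% of all genes), 3 with all 12 libraries in 1 fit (10.1%), 0 with limma on log2(FPKM + 0.1) (1.44%) and 0 to 2 with a library left out (0% to 8.04%), against 2.34% in the main test. The cause of these shifts was not tested. DESeq2 called 1081 genes of the table higher and 794 lower from 6M to 18M and 1234 higher and 1992 lower from 18M to 4Y, against 3 and 7, and 0 and 6, with edgeR.

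None of the sign changes concerned a called gene. *VWF* from 6M to 18M was at 0.12 with the library size alone, at 0.0409 with limma on log2(FPKM + 1) and at 0.0429 with limma on log2(FPKM + 0.1). *TEK* from 18M to 4Y was at -0.0449 without 4Y replicate 3, in a range of -0.0449 to 0.38 over the fits that left out a library. *CDH5* in cattle–yak against 18M was at 0.12 with the library size alone, 0.018 without a filter, 0.10 with limma on log2(FPKM + 1), 0.12 with limma on log2(FPKM + 0.1), 0.0844 without 18M replicate 1, 0.0323 without 18M replicate 3 and 0.0424 without cattle–yak replicate 3, in a range of -0.15 to 0.0844 with a library left out. Replicate numbers are shared between groups by name only: deviations of same-numbered libraries from their group means correlated at -0.332 to 0.160. With the replicate number as a block, 3 genes were called lower from 6M to 18M, beside 2.04% of all genes, and 0 in cattle–yak against 18M, where 0% of all genes were called lower. Counts limit *EMCN*, *TIE1*, *TEK* and *PECAM1* most, with 19 to 95 counts per 4Y library.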
